A study of Homo sapiens with 40 samples.

Results

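Integrins are cell-surface receptors that anchor epithelial and carcinoma cells to the extracellular matrix. A set of 10 genes of this family was followed here, taken by symbol from the 60708 genes of the count files: the α subunits ITGA2, ITGA3, ITGA5, ITGA6 and ITGAV, and the β subunits ITGB1, ITGB4, ITGB5, ITGB6 and ITGB8. Their RNA was counted in 24 libraries of 8 groups with 3 biological replicates each, per the labels. MI-spheres are 3D cultures of MCF-10A, an immortalized breast epithelial line, and MII-spheres are 3D cultures of its HRAS-transformed derivative (MCF-10AneoT, on the labels MCF-10A-HRAS). Both grew on ultra-low attachment plates and were either unstimulated (Ctrl) or given TGFβ1 at 2.5 ng/ml for 16 h (TGFβ). MDA-MB-231, a triple-negative breast cancer line, grew as a monolayer in DMEM with fetal bovine serum and received no TGFβ per its labels. It was sequenced untreated (WT), as CRISPR/Cas9 SLUG knockout cells (SLUG KO), after control scramble siRNA (Csi) and after siRNAs against SMAD2, SMAD3 and SMAD4 (SMAD KD). The knockout came from a single guide in exon 1 of SNAI2, the gene of SLUG, and from colonies grown out of single cells. Whether its 3 libraries hold 1 clone is not stated. Line, medium and 2D or 3D growth cannot be told apart between the spheres and MDA-MB-231.

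An integrin is a heterodimer of an α and a β chain, and the pair decides what it binds. ITGB1 is the common β chain, which pairs with ITGA2 into a collagen receptor, with ITGA3 and ITGA6 into laminin receptors and with ITGA5 into the classical fibronectin receptor. ITGB4 pairs with ITGA6 alone, and this dimer anchors basal epithelial cells to laminin-332 through hemidesmosomes. ITGAV pairs with ITGB5, ITGB6 or ITGB8. Its dimer with ITGB5 binds vitronectin, and those with ITGB6 and ITGB8 bind latent TGFβ and are known for activating it. ITGB6 is known as an epithelial gene. In breast epithelium, ITGA6 and ITGB4 are typical of the basal layer. RNA levels show neither which chains had paired nor how much protein stood on the surface.

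Between 14124688 and 38406952 fragments per library were counted on genes. CPM below are counts relative to the library total, with TMM scaling over all 24 libraries. In 7 groups every pair of replicates had an r of 0.984 or more over genes (Pearson, log2 CPM). In the WT group, replicate 2 stood apart, with r of 0.957 and 0.952 to replicates 1 and 3, which had r of 0.989 with each other. Tests that rest on the WT group are therefore given with and without that library. HRAS, the transforming gene of MII, was at 40.7 CPM ± 1.01 (SD, n = 3) in MI-Ctrl and 220 CPM ± 4.1 in MII-Ctrl. In SMAD KD against Csi, SMAD2 fell by 1.92, SMAD3 by 0.69 and SMAD4 by 1.72 on the log2 scale (edgeR, adjusted p = 2.65e-22, 9.70e-15 and 1.50e-19). SNAI2 RNA was higher, not lower, in the libraries labelled SLUG KO, at 63.5, 57.7 and 64.3 CPM against 30.2, 20.9 and 33.7 in WT. Gene-level counts cannot show a small edit in exon 1, so they do not check that label. The paper states that its knockout clones were tested by ddPCR and immunoblotting. The summed level of 6 epithelial markers (EPCAM, CDH1, KRT5, KRT14, KRT6A, TP63) was 765 to 1760 CPM in the sphere libraries. In MDA-MB-231 it was 12.8 to 41.7 CPM, and KRT5 was at 0 counts in all WT and SLUG KO libraries. In MII-Ctrl most of the sum was CDH1, at a mean of 566 CPM. TP63 and KRT6A were at means of 0.621 and 1.75 CPM there, against 51.2 and 52.3 CPM in MI-Ctrl. KRT5 was also lower in MII-Ctrl, while KRT14 was higher (8.41 against 1.56 CPM). The TP63 mean in MII-Ctrl was below that of every MDA-MB-231 group (1.07 to 3.64 CPM). Summed mesenchymal markers (VIM, ZEB1, CDH2, FN1, SPARC, COL1A1) were at 62.9 to 307 CPM in spheres and 878 to 4157 CPM in MDA-MB-231. This order was opposite to that of the epithelial sum. In spheres most of it was FN1, with means from 55.3 CPM in MI-Ctrl to 262 CPM in MI-TGFβ. VIM and ZEB1 had a higher mean in every MDA-MB-231 group than in any sphere group, and FN1, CDH2, SPARC and COL1A1 did not. Among spheres ZEB1 did not follow the sum, at 1.77 CPM in MI-TGFβ and 3.17 CPM in MII-TGFβ. CDH2 was at 10.3 CPM in MII-TGFβ and 1.18 CPM in WT, and COL1A1 at 9.83 CPM in MII-Ctrl and 1.1 CPM in SLUG KO. In bulk RNA, fewer cells of a type and less RNA per cell cannot be told apart.

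ITGA5, ITGB5 and ITGB6 were the members more than 2-fold higher with TGFβ1 in MI-spheres, and their promoters are shown because the members that move together can be read side by side there. RefSeq (GRCh38.p14) promoter entries matched 8 of the 10 genes, and ITGA3 and ITGB4 had no entry. Each line gives the bases just upstream of the annotated start on the minus strand, 5′ to 3′. Capitals mark the SMAD box CAGAC, the E-box CAGGTG bound by SLUG and the SP1 GC box GGGCGG, searched on both strands.
ITGA5, chr12:54419267-54419516: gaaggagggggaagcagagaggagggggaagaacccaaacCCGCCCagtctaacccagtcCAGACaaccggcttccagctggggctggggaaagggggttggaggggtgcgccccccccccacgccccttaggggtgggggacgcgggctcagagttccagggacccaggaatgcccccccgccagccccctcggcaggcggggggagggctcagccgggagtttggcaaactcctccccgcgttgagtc
ITGB5, chr3:124901419-124901668: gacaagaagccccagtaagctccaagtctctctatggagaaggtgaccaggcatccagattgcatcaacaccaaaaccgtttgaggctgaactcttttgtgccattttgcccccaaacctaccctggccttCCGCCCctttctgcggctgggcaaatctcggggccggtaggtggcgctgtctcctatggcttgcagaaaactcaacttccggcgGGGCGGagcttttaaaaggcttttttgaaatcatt
ITGB6, chr2:160200314-160200522: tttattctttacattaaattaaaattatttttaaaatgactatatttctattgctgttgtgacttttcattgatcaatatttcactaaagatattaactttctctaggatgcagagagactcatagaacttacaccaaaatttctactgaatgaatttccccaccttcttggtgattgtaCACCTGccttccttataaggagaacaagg
The ITGA5 window held 1 SMAD box and 1 GC box, the ITGB5 window held 2 GC boxes, and the ITGB6 window held 1 E-box. Of the 35116 promoter windows of 250 bases in the table, 38% held a SMAD box, 42.6% a GC box and 17.5% this E-box. The searched AP-1 site TGACTCA (4.2% of all windows) and TATA box TATAAA (10.7%) were in none of these 3. The full 250-base ITGB6 window had a GC content of 30% and 0 CpG, at the 1.52 percentile of all windows, whose median was 58%. GC content was 70% for ITGA5 and 52.8% for ITGB5. These matches describe letters and are not shown to be bound sites.

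The order of the members was compared within each group as CPM per kilobase of exon (CPM per kb). ITGB4 led in MI-Ctrl with 68.4 CPM per kb ± 2.02 (SD, n = 3), followed without overlap by ITGB6 with 52 ± 1.33. ITGB6 led in the other sphere groups, with 135 ± 11 in MI-TGFβ, 143 ± 2.19 in MII-Ctrl and 166 ± 3.99 in MII-TGFβ, in each case above every library of the member that came next. ITGA5 was the lowest member in MI-Ctrl, MII-Ctrl and MII-TGFβ, at 7.93 ± 0.12, 2.06 ± 0.06 and 4.51 ± 0.31 CPM per kb. In MI-TGFβ the lowest was ITGB8 at 9.15 ± 0.90. ITGA3 led in all 4 MDA-MB-231 groups, with 168 ± 84.5 in WT, 196 ± 17.6 in SLUG KO, 167 ± 1.99 in Csi and 138 ± 6.02 CPM per kb in SMAD KD. In WT its libraries overlapped those of ITGB1, at 100 ± 24.1. ITGB8 and ITGB6 closed the order in every MDA-MB-231 group, ITGB8 at 1.05 to 1.7 and ITGB6 at 0.0346 to 0.107 CPM per kb on average. Exon overlap with other genes was small for 9 members (0 to 5.26% of exon bases). For ITGB6 it was 16.7%, through an RNA on the same strand with 395 counts over all libraries against 164995 for ITGB6, and reads in shared bases were not counted.

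**Figure D1:**
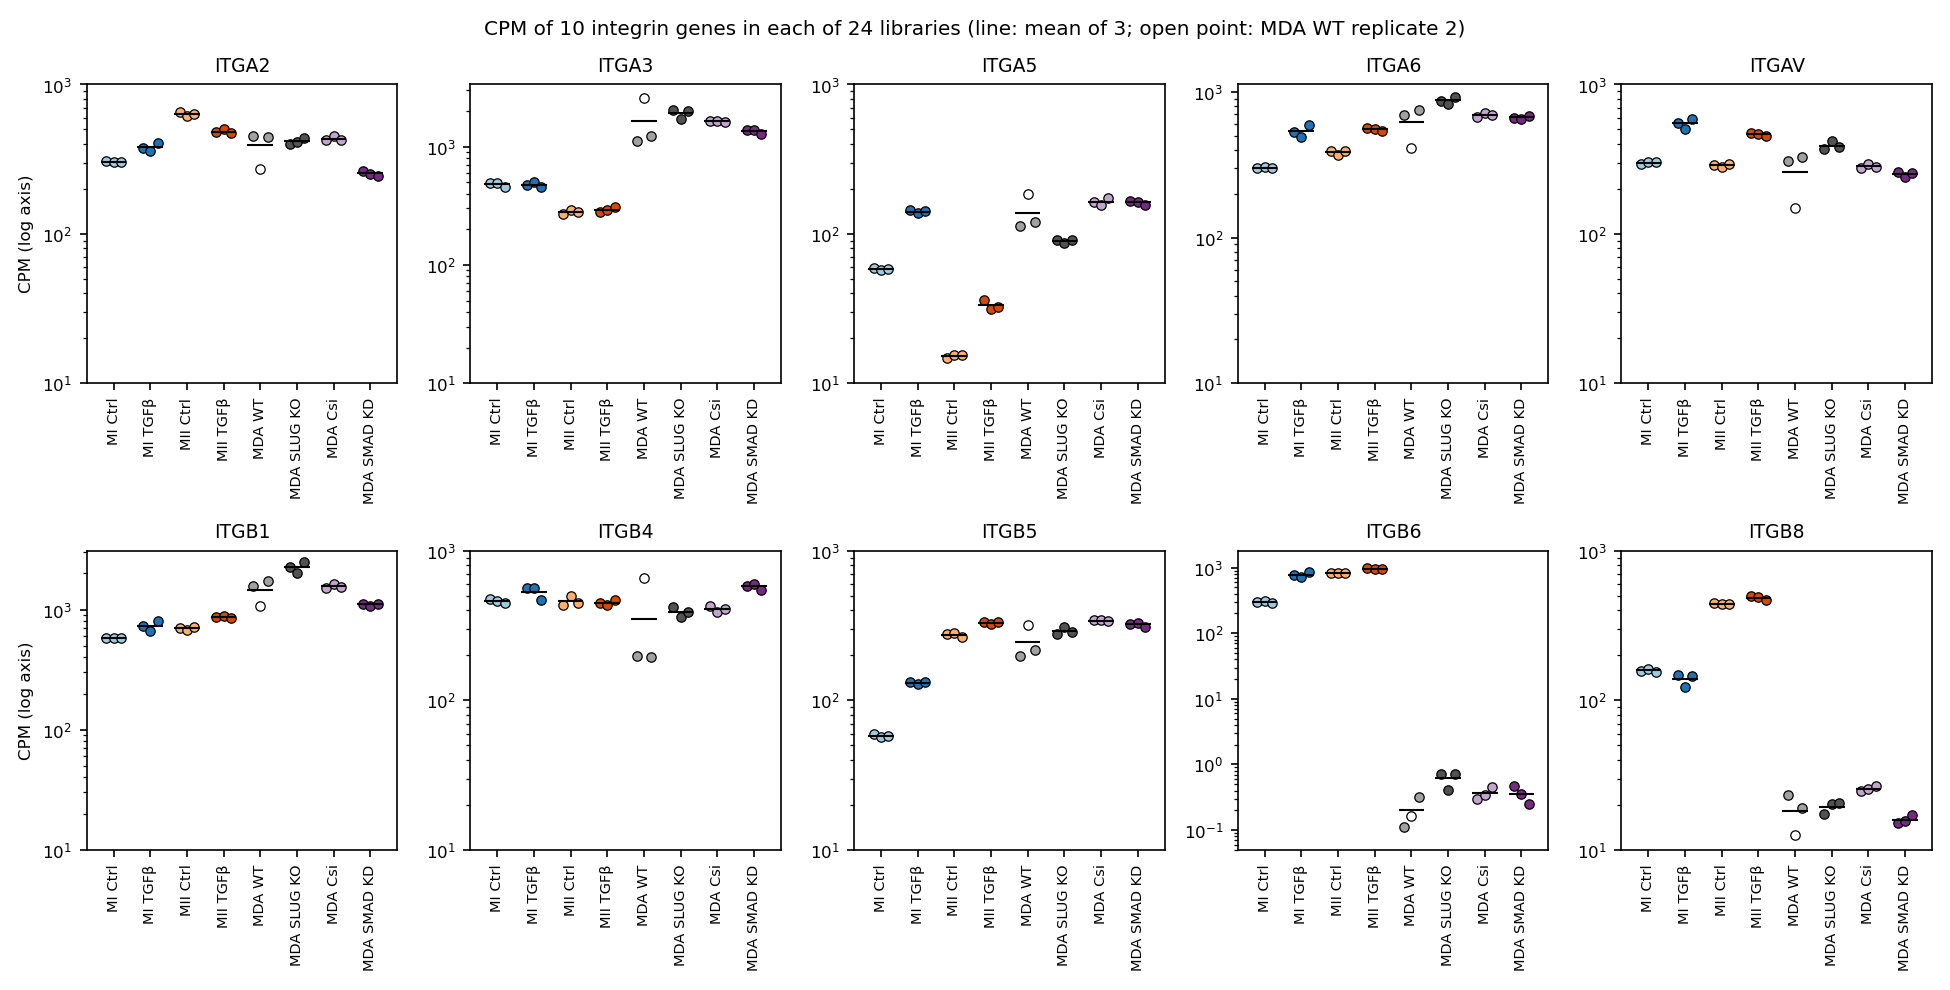
CPM of each integrin (log axis, ITGB6 on a wider range) in the 24 libraries by group, with a line at the mean of 3 libraries and an open point for WT replicate 2. ITGB6 lies between 293 and 990 CPM in spheres and below 1 CPM in MDA-MB-231, and WT replicate 2 lies away from the other WT libraries for ITGA3 and ITGB4.

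The make-up of the family differed by line. ITGB6 gave 28.9% ± 0.363 (SD, n = 3) of the summed β-chain RNA per kb in MI-Ctrl, 46% ± 2.4 in MI-TGFβ, 43.2% ± 0.896 in MII-Ctrl and 44.3% ± 0.569 in MII-TGFβ, and at most 0.0407% ± 0.00991 in the MDA-MB-231 groups. There the largest mean β share was that of ITGB1, with 54% ± 18.2 in WT (63.8%, 33% and 65.2% in replicates 1, 2 and 3, with ITGB4 ahead at 44.3% in replicate 2), 59.7% ± 2.5 in SLUG KO and 48.3% ± 1.72 in Csi. In SMAD KD, ITGB4 was the larger share, 40.4% ± 1.09 against 35.8% ± 1.32 for ITGB1. Among α chains, ITGA3 and ITGA6 were the largest shares in MI-Ctrl, 27.7% ± 0.798 and 25.5% ± 0.197. In MII-Ctrl ITGA2 was the largest with 39.5% ± 0.625, and ITGA3 held 14% ± 0.862. In MDA-MB-231, ITGA3 gave a mean of 42.7% to 45.3% of the α-chain RNA per kb in each group. In WT this mean of 45.3% ± 17.6 came from 34.5%, 65.6% and 35.7% in replicates 1, 2 and 3. Shares within 1 sum are tied to each other, so a rise in ITGB6 lowers the share of the other β chains at unchanged RNA.

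**Figure D2:**
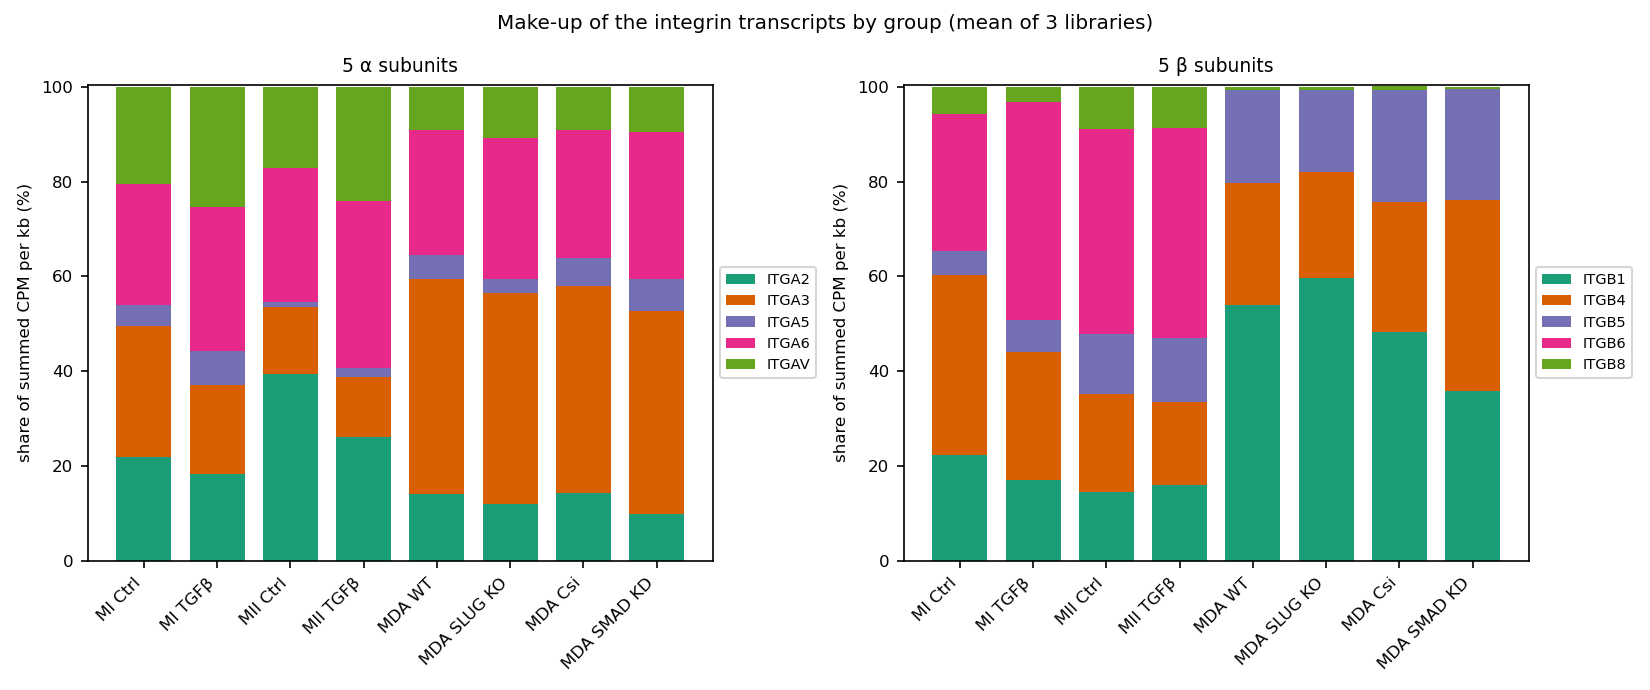
Share of each subunit in the summed CPM per kb of the 5 α subunits (left) and the 5 β subunits (right), in percent, as the mean of 3 libraries per group. ITGB6 makes up 28.9% to 46% of the β chains in spheres and is not visible in MDA-MB-231, where ITGA3 has a mean of 42.7% to 45.3% of the α chains, in WT through replicate 2 (65.6%, against 34.5% and 35.7%).

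TGFβ1 raised most integrins in MI-spheres. Of the 10 members, 7 were higher and 1 lower at an adjusted p under 0.05 by edgeR's quasi-likelihood test, against 28.7% of 16863 tested genes higher and 27.4% lower (56.0% called in all). Their median log2 fold change was 0.50, against -0.02 over all genes. The 3 largest changes were those of ITGB6, ITGA5 and ITGB5, the members that also passed a 2-fold change, which 13.6% of all genes did. ITGB6, the β chain of a latent-TGFβ receptor, stood at 302, 308 and 293 CPM in MI-Ctrl and at 764, 727 and 851 CPM in MI-TGFβ. Its log2 fold change was 1.29 ± 0.05 (SE, edgeR, adjusted p = 3.35e-14), with every stimulated library above every control. ITGA5, the α chain of the fibronectin receptor, stood at 59.5, 57.7 and 58.4 CPM without and 144, 138 and 142 CPM with TGFβ1. Its log2 fold change was 1.19 ± 0.05 (adjusted p = 7.88e-14), again without overlap. ITGB5, of the vitronectin receptor, had 60, 56.9 and 57.7 CPM in Ctrl. Per kb of exon it went from 8.73 to 9.2 CPM in Ctrl to 19.7 to 20.4 CPM with TGFβ1, a log2 fold change of 1.09 ± 0.05 (adjusted p = 3.64e-13). Its 2 groups were also apart. ITGAV, the α chain shared by the receptors of ITGB5, ITGB6 and ITGB8, was at 293, 303 and 304 CPM in Ctrl and at 554, 507 and 587 CPM with TGFβ1. The log2 fold change was 0.79 ± 0.05 (adjusted p = 6.54e-11). ITGA6, the laminin receptor chain that pairs with ITGB1 or ITGB4, was at 300, 306 and 300 CPM in Ctrl and at 528, 490 and 590 CPM with TGFβ1, a log2 fold change of 0.74 ± 0.06 (adjusted p = 4.11e-10). For ITGAV and ITGA6 too, the groups did not overlap.

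Smaller changes in MI-spheres were those of ITGB1 and ITGA2, with log2 fold changes of 0.25 ± 0.06 (edgeR, adjusted p = 0.000979) and 0.24 ± 0.05 (adjusted p = 0.000372). ITGB1 no longer passed when libraries were scaled by their totals (0.11, adjusted p = 0.0649), a scaling under which the median of all genes moved from -0.02 to -0.15. ITGB8, the other β chain known for activating latent TGFβ, was the member that fell, from 158, 163 and 156 CPM to 148, 123 and 145 CPM. Its log2 fold change was -0.28 ± 0.06 (adjusted p = 0.000472), the groups stood apart, and the sign was opposite to that of ITGB6. ITGB4 and ITGA3, the chains of laminin receptors typical of basal epithelium, did not pass the test, with log2 fold changes of 0.13 (95% interval -0.01 to 0.26, adjusted p = 0.115) and -0.09 (-0.21 to 0.02, adjusted p = 0.157). ITGB4 passed in 5 of the alternatives, among them without MI-TGFβ replicate 3 (0.23, adjusted p = 7.88e-06), whose 470 CPM lay within the Ctrl range while replicates 1 and 2 had 563 and 567 CPM. ITGA3 passed as lower with library totals (-0.23, adjusted p = 0.00235) and without MI-TGFβ replicate 2 (-0.13, adjusted p = 0.0329). Beside these changes, the summed epithelial markers rose from 787 to 809 CPM in Ctrl to 1634 to 1760 CPM with TGFβ1. The summed mesenchymal markers went from 62.9 to 70.1 CPM to 273 to 307 CPM. Most of that sum was FN1, at means of 55.3 and 262 CPM. The part of these markers in the integrin changes was not tested. In 1 fit of all 18 libraries of the sequencing batch, which shares the spread of the WT libraries, ITGA2, ITGB1 and ITGB8 no longer passed in MI-spheres (adjusted p = 0.0999, 0.0957 and 0.354).

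In MII-spheres, TGFβ1 again raised 7 members and lowered 1, against 29.9% of 16396 tested genes higher and 27.6% lower (57.6% called), but the members and sizes differed. The median log2 fold change of the members was 0.21, against -0.02 over all genes. ITGA5 changed most and was the only member past a 2-fold change, as 10.6% of all genes were. It stood at 14.8, 15.4 and 15.5 CPM in MII-Ctrl and at 35.9, 31.6 and 32.3 CPM with TGFβ1, a log2 fold change of 1.09 ± 0.08 (edgeR, adjusted p = 1.53e-17). The stimulated MII libraries stayed below the unstimulated MI libraries. ITGAV went from 290, 282 and 295 CPM to 470, 468 and 452 CPM (0.65 ± 0.04 on the log2 scale, adjusted p = 3.86e-22), and ITGA6 from 396, 366 and 396 CPM to 563, 558 and 542 CPM (0.49 ± 0.04, adjusted p = 3.85e-17). Neither gene overlapped between the groups. ITGB1 (0.28 ± 0.03, adjusted p = 3.44e-10), ITGB5 (0.23 ± 0.04, adjusted p = 2.69e-07) and ITGB6 (0.19 ± 0.03, adjusted p = 3.22e-06) changed little. ITGB6, already at 841, 816 and 822 CPM in MII-Ctrl, reached 990, 949 and 951 CPM, and it did not pass with library totals (0.06, adjusted p = 0.115). ITGB8 was higher by 0.11 ± 0.03 (adjusted p = 0.00712), with 447, 442 and 440 CPM against 500, 495 and 471 CPM. This direction turned with library totals (-0.02, adjusted p = 0.552), under which the median of all genes moved from -0.02 to -0.15. The collagen receptor chain ITGA2 was the member that fell, from 659, 618 and 635 CPM to 478, 504 and 471 CPM, with a log2 fold change of -0.43 ± 0.04 (adjusted p = 2.03e-15) and no overlap. ITGA3 (0.02, 95% interval -0.05 to 0.10) and ITGB4 (-0.07, -0.15 to 0.01) did not pass, at adjusted p of 0.627 and 0.115. With library totals both passed as lower, at -0.11 (adjusted p = 0.0153) and -0.20 (adjusted p = 2.48e-05). ITGB4 also passed as lower with at least 10 counts in every library (-0.11, adjusted p = 0.0144). Without MII-Ctrl replicate 1 it passed too (-0.10, adjusted p = 0.0438). In the fit of 18 libraries, ITGB1, ITGB5, ITGB6 and ITGB8 did not pass (adjusted p = 0.148, 0.217, 0.281 and 0.593).

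The difference between both responses was tested as the interaction of line and TGFβ1 in all 12 sphere libraries, where 22.4% of 18591 genes were called. Of the 10 members, 5 differed. The response of ITGB6 was smaller in MII-spheres by 1.10 on the log2 scale (-1.10 ± 0.06, edgeR, adjusted p = 1.21e-16), and that of ITGB5 by 0.85 (-0.85 ± 0.06, adjusted p = 2.34e-13). In unstimulated MII-spheres both genes already stood above their level in unstimulated MI-spheres. ITGA2 differed by -0.66 ± 0.06 (adjusted p = 7.91e-11), higher with TGFβ1 in MI-spheres and lower in MII-spheres. ITGB8 differed in the other direction, by 0.39 ± 0.07 (adjusted p = 3.03e-05). For ITGA6 the difference was -0.25 ± 0.07 (adjusted p = 0.00631). Neither ITGB8 nor ITGA6 passed in the fit of 18 libraries (adjusted p = 0.557 and 0.605). For ITGA5 the difference was -0.09 (95% interval -0.27 to 0.09, adjusted p = 0.550) and for ITGB1 0.04 (-0.09 to 0.18, adjusted p = 0.730). These intervals bound how far both responses could differ, and do not show that they are alike. ITGA3 (0.13, adjusted p = 0.202), ITGAV (-0.14, adjusted p = 0.129) and ITGB4 (-0.18, adjusted p = 0.105) did not pass either. The last 2 passed in some alternatives. ITGAV did so with TMM over all libraries (-0.19, adjusted p = 0.0416), with at least 10 counts in every library (-0.17, adjusted p = 0.0312) and without MI-TGFβ replicate 2 (-0.23, adjusted p = 0.00438). ITGB4 did so with TMM over all libraries (-0.24, adjusted p = 0.0281), without MI-TGFβ replicate 3 (-0.31, adjusted p = 1.47e-05) and without MII-TGFβ replicate 3 (-0.24, adjusted p = 0.0435).

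**Figure D3:**
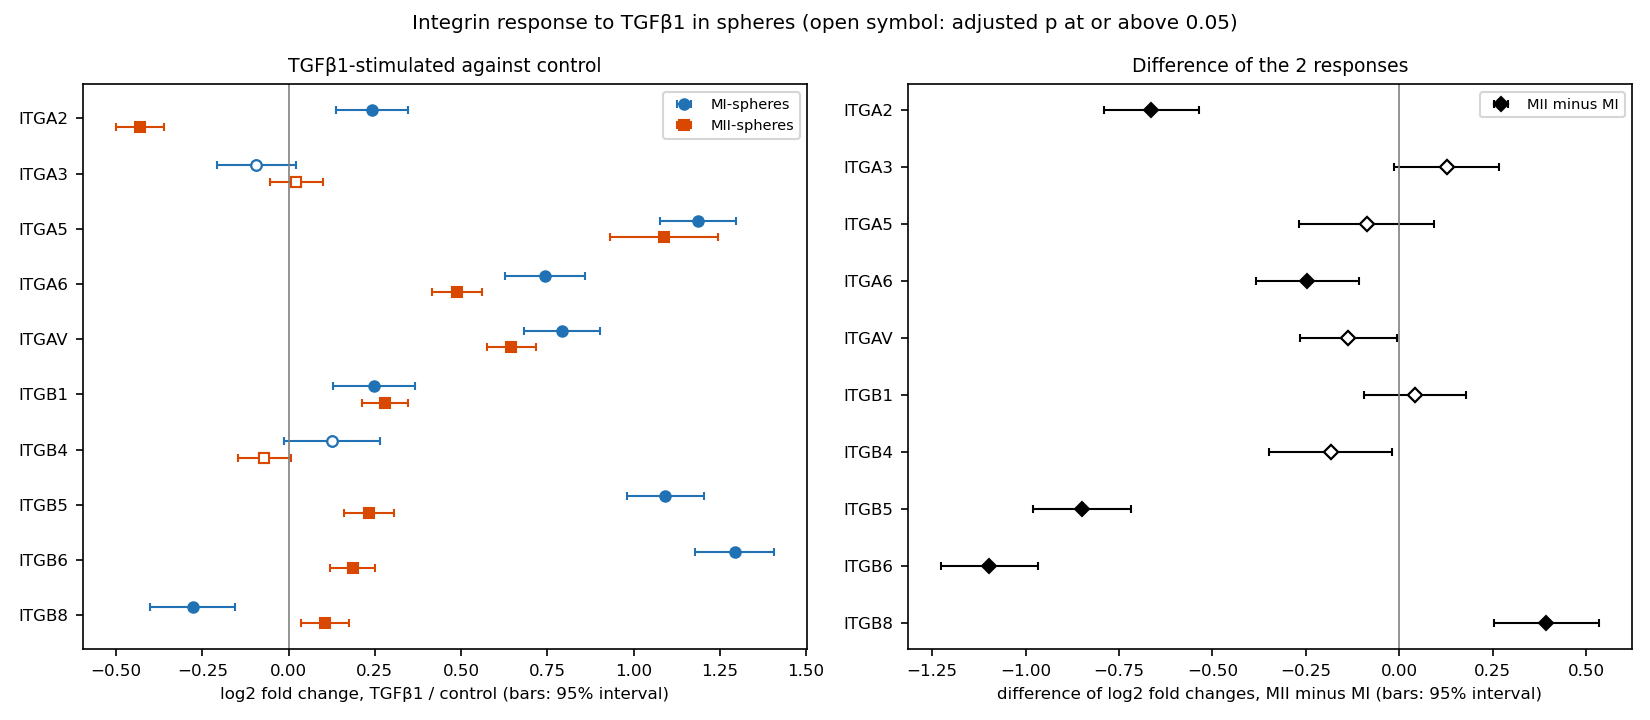
Log2 fold change with TGFβ1 of each integrin in MI-spheres (circles) and MII-spheres (squares) on the left, and the difference of both responses on the right, with 95% intervals. Open symbols did not pass an adjusted p of 0.05. ITGB6 and ITGB5 lie above 1 in MI-spheres and below 0.25 in MII-spheres, ITGA5 lies above 1 in both, and ITGA2 changes sign.

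Of 22 listed ligands, 19 were tested in MI-spheres, where 13 were higher and 2 lower (median log2 fold change 0.54), and 18 in MII-spheres, where 11 were higher and 4 lower (median 0.51). Over all tested genes, 28.7% were higher and 27.4% lower in MI-spheres, and 29.9% and 27.6% in MII-spheres. FN1, the fibronectin bound by ITGA5, was higher in MI-spheres (2.16 ± 0.06, edgeR, adjusted p = 7.01e-17), from 57.1, 52.1 and 56.8 CPM to 258, 280 and 247 CPM. In MII-spheres it was at a mean of 134 CPM ± 3.08 (SD) in Ctrl against 146 CPM ± 8.4 (0.09 ± 0.04, adjusted p = 0.0610), and the interaction was -2.06 ± 0.08 (adjusted p = 2.31e-22). The interaction was thus called for FN1 and not for the receptor chain ITGA5. LAMA3 and LAMB3, laminin chains of a ligand of ITGA3 and ITGA6 receptors, rose in both lines and more in MII-spheres. LAMA3 changed by 0.52 ± 0.05 in MI-spheres and by 1.39 ± 0.04 in MII-spheres, and LAMB3 by 0.28 ± 0.05 and 0.50 ± 0.04. The interaction was called for both (0.88 and 0.23, adjusted p = 1.71e-13 and 0.00521). The largest rise among called ligands was that of POSTN, a matricellular protein, in MI-spheres (4.25 ± 0.31) and of COL4A1, a basement membrane collagen, in MII-spheres (4.35 ± 0.12). CCN1, a secreted matricellular ligand, fell most in both lines (-1.51 ± 0.13 and -1.56 ± 0.12). TGFB1, the gene of the ligand that ITGB6 and ITGB8 receptors release, was at 13.3 CPM in MI-Ctrl and 13.6 CPM in MI-TGFβ on average, and did not pass in either line (adjusted p = 0.643 and 0.195).

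On the inner side of the membrane, 24 activators and adaptors were listed. In MI-spheres 10 of 23 tested were higher and 6 lower (median log2 fold change 0.06), against 28.7% and 27.4% of all tested genes. In MII-spheres 9 of 22 were higher and 4 lower (median 0.08), against 29.9% and 27.6% of all tested genes. The median over all genes was -0.02 in each line. FERMT1, the epithelial kindlin that activates β chains, rose most in MII-spheres (1.31 ± 0.06, edgeR, adjusted p = 1.14e-26), and FHL2, a LIM-domain adaptor, rose most in MI-spheres (1.03 ± 0.07, adjusted p = 1.68e-10). TNS3, a tensin that links β chains to actin, fell most in MI-spheres (-1.42 ± 0.07, adjusted p = 2.34e-13). ILK, an adaptor at β-chain tails, fell most in MII-spheres (-0.84 ± 0.33, edgeR, adjusted p = 0.0253) at a mean of 1.58 CPM or less. Exon overlap with other genes, whose shared fragments were dropped, was checked for the members and not for ILK. Among 9 hemidesmosome and tetraspanin partners, 6 were higher and 2 lower in MI-spheres, and 6 higher and 0 lower in MII-spheres. The shares over all genes are those given above for each line. CD82, a tetraspanin, fell most in MI-spheres, from a mean of 95.9 CPM to 55.4 CPM. COL17A1, the hemidesmosomal collagen beside ITGA6 and ITGB4, rose most in both, by 1.24 ± 0.05 in MI- and 0.59 ± 0.06 in MII-spheres (adjusted p = 2.60e-14 and 4.20e-13).

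HRAS-transformed and normal-like spheres were compared without TGFβ1. Of the 10 members, 6 were higher and 2 lower in MII-Ctrl, against 31.7% of 17862 tested genes higher and 32.5% lower (64.2% called). Past a 2-fold change were 5 members, and 20.1% of all genes. This comparison uses the control libraries of both TGFβ1 comparisons. ITGB5 differed most, with 60, 56.9 and 57.7 CPM in MI-Ctrl and 279, 282 and 265 CPM in MII-Ctrl (2.25 ± 0.04 on the log2 scale, edgeR, adjusted p = 6.96e-45). Each MII library was above each MI library. ITGB6 (1.47 ± 0.03, adjusted p = 1.08e-39) and ITGB8 (1.49 ± 0.04, adjusted p = 2.64e-39), both of latent-TGFβ receptors, were also higher in MII-Ctrl, ITGB8 at 447, 442 and 440 CPM against 158, 163 and 156 CPM. Their shared partner ITGAV was not called (-0.04, 95% interval -0.11 to 0.03, adjusted p = 0.309). The collagen receptor chain ITGA2 was at 659, 618 and 635 CPM in MII-Ctrl and at 307, 305 and 303 CPM in MI-Ctrl (1.07 ± 0.04, adjusted p = 3.71e-33), with no overlap. The fibronectin receptor chain ITGA5 was lower in MII-Ctrl, at 14.8, 15.4 and 15.5 CPM against 59.5, 57.7 and 58.4 CPM (-1.93 ± 0.06, adjusted p = 7.71e-33). ITGA3 was lower as well (-0.77 ± 0.04, adjusted p = 1.19e-25). ITGA6 and ITGB1 were higher by 0.36 ± 0.04 and 0.27 ± 0.03 (adjusted p = 5.54e-13 and 4.86e-10), and neither passed in the fit of 18 libraries (adjusted p = 0.0847 and 0.156). ITGB4 was not called (0.01, 95% interval -0.07 to 0.09, adjusted p = 0.827). The laminin chains LAMA3 and LAMB3 were lower in MII-Ctrl, LAMA3 by -1.27 ± 0.04 and LAMB3 by -0.68 ± 0.03 on the log2 scale, and COL17A1 by -2.15 ± 0.04, while FN1 was higher by 1.28 ± 0.05. Of the 16 other integrin genes, 10 were tested, with 3 higher and 3 lower. ITGB3, the β chain that can also pair with ITGAV, was higher by 5.95 ± 0.08 (adjusted p = 2.28e-51), at a mean of 2 CPM in MI-Ctrl and 124 CPM in MII-Ctrl. It fell with TGFβ1 in MII-spheres (edgeR, adjusted p = 3.26e-24), to a mean of 63.5 CPM, and rose in MI-spheres (0.61 ± 0.21, adjusted p = 0.0175), to 3.24 CPM. The largest fall between the lines was that of ITGAM, a leukocyte integrin, at 2.48 CPM in MI-Ctrl and 0.52 CPM in MII-Ctrl.

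The carcinoma line MDA-MB-231 (WT) was set against MI-Ctrl spheres within their shared sequencing batch. Of the 10 members 5 were higher and 2 lower, against 28.1% of 18732 genes higher and 25.9% lower (54.0% called). Without WT replicate 2, 9 members were called, against 74.9% of 19572 genes. ITGB6 was near its floor in MDA-MB-231. WT libraries held 3, 4 and 8 counts of it, or 0.113, 0.166 and 0.322 CPM, where MI-Ctrl libraries held 5636 to 7838 counts. The fitted log2 fold change of -10.53 (edgeR, adjusted p = 3.03e-06, without WT replicate 2 -10.46, adjusted p = 4.55e-16) rests on these few counts. ITGB8 was also lower, at 23.2, 12.6 and 19.1 CPM against 158, 163 and 156 CPM (-3.12 ± 0.26, adjusted p = 6.03e-05, without WT replicate 2 -2.94, adjusted p = 5.36e-13). The called falls were thus those of both β chains of latent-TGFβ receptors, while ITGAV did not pass with WT replicate 2 (-0.20, adjusted p = 0.591) or without it (0.05, adjusted p = 0.501). ITGB1, the common chain, was higher, at 1573, 1062 and 1735 CPM against 585, 581 and 581 CPM (1.32 ± 0.22, adjusted p = 0.00202), with WT replicate 2 the lowest of the 3. Without it the log2 fold change was 1.47 (adjusted p = 8.48e-11). ITGA3 was at 1111, 2598 and 1224 CPM against 493, 493 and 459 CPM (1.77 ± 0.35, adjusted p = 0.00398), and without WT replicate 2 its log2 fold change was 1.24 (adjusted p = 7.53e-10). ITGB5 (2.07 ± 0.22), ITGA5 (1.24 ± 0.22) and ITGA6 (1.03 ± 0.25) were higher as well, with adjusted p of 0.000232, 0.00266 and 0.0105. Without WT replicate 2 they were at 1.80, 0.96 and 1.23 (adjusted p = 3.89e-12, 4.72e-09 and 3.27e-10). ITGA6 missed the threshold when any MI-Ctrl library was left out (adjusted p = 0.0539 to 0.0563). For ITGB4 the WT libraries held 198, 661 and 195 CPM around the 448 to 474 CPM of MI-Ctrl. It was not called with all libraries (-0.40 ± 0.48, adjusted p = 0.503) and was lower without WT replicate 2 (-1.27 ± 0.07, adjusted p = 4.24e-10). ITGA2 was not called with all libraries (0.35, adjusted p = 0.227). It passed without WT replicate 2 (0.53, adjusted p = 4.57e-06) and, with it, in the fit of 18 libraries (0.41, adjusted p = 0.0139). All 6 epithelial markers were lower in WT. Of the 6 mesenchymal markers 3 were higher (without WT replicate 2, 3 were higher and 1 lower). VIM was at 784 CPM on average against 1.71 CPM in MI-Ctrl. The part of these markers in the integrin differences was not tested.

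Knockdown of SMAD2, SMAD3 and SMAD4, the transcription factors that carry TGFβ signals, was compared with Csi in MDA-MB-231. Of the 10 members 5 were lower and 1 higher, against 19.7% of 17696 genes lower and 16.3% higher (36.0% called). No member passed a 2-fold change, as 1.90% of all genes did. ITGA2 fell most, from 428, 450 and 428 CPM in Csi to 263, 252 and 245 CPM in SMAD KD (-0.79 ± 0.04 on the log2 scale, edgeR, adjusted p = 1.95e-16). The groups did not overlap. ITGB8 fell from 24.7, 25.7 and 26.8 CPM to 15, 15.7 and 17 CPM (-0.70 ± 0.07, adjusted p = 3.66e-09), and ITGB1 from 1503, 1648 and 1529 CPM to 1123, 1077 and 1118 CPM (-0.50 ± 0.04, adjusted p = 5.12e-12), each without overlap. ITGA3 (-0.28 ± 0.04, adjusted p = 4.19e-07) and ITGAV (-0.18 ± 0.04, adjusted p = 0.000477) were also lower. ITGB4, the hemidesmosomal chain, was the member that rose, from 428, 391 and 407 CPM to 587, 604 and 552 CPM (0.50 ± 0.04, adjusted p = 2.75e-11), and every SMAD KD library was above every Csi library. Its partner ITGA6 was not called (-0.07, 95% interval -0.15 to 0.01, adjusted p = 0.178). ITGA5, which rose with TGFβ1 in both kinds of spheres, was not called here (-0.02, 95% interval -0.11 to 0.07, adjusted p = 0.768), nor was ITGB5 (-0.09, -0.17 to -0.01, adjusted p = 0.0694). ITGB6 had 9, 13 and 17 counts in Csi and 17, 12 and 8 in SMAD KD, too few to show a change (adjusted p = 0.940). Per the names of the files, SMAD KD replicates 1 and 2 came from another flow cell than replicate 3 and Csi. With flow cell as a term, the knockdown estimate therefore rested on SMAD KD replicate 3 alone against Csi. Its log2 fold changes were -0.82 for ITGA2 and 0.44 for ITGB4. Of 20 tested ligands, 8 were higher and 7 lower. LAMB3 was lower (-0.32 ± 0.04), LAMA3 was not called (-0.02, adjusted p = 0.747), FN1 was higher (0.25 ± 0.04, adjusted p = 1.08e-05), and CCN2, a matricellular TGFβ target, fell most (-0.61 ± 0.04, adjusted p = 4.49e-13). COL1A1 rose most (0.77 ± 0.07, adjusted p = 1.86e-10). Among the partners of ITGB1 and ITGA3 in the membrane, the tetraspanin CD82 fell most (-0.67 ± 0.05, adjusted p = 1.32e-11).

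In the libraries labelled SLUG KO, none of the 9 tested members was called against WT by edgeR, with 2 at an unadjusted p under 0.05, against 3.33% of 17428 genes called and 19.1% at an unadjusted p under 0.05. ITGB6, with 18, 9 and 16 counts in SLUG KO and 3, 4 and 8 in WT, was too low to be tested. Not being called does not show that values were alike. Without WT replicate 2, 7 of 10 members were called, against 31.2% of 17909 genes. With all libraries, the fit of 18 libraries called 4 of these 9 members, ITGA5 (-0.66, adjusted p = 0.00353), ITGB1 (0.61, adjusted p = 0.00459), ITGA6 (0.48, adjusted p = 0.0345) and ITGAV (0.56, adjusted p = 0.0426). Because SNAI2 RNA did not fall, directions here describe the libraries labelled SLUG KO. ITGB4 was at 425, 364 and 389 CPM in SLUG KO and at 198, 661 and 195 CPM in WT. Its log2 fold change was 0.13 ± 0.48 (adjusted p = 0.896) with all libraries and 0.99 ± 0.09 (adjusted p = 9.73e-07) without WT replicate 2. ITGA3 was at 2030, 1723 and 2014 CPM against 1111, 2598 and 1224 CPM, 0.20 ± 0.34 (adjusted p = 0.773) with all libraries and 0.71 ± 0.10 (adjusted p = 9.19e-05) without it. For both genes WT replicate 2 lay above all SLUG KO libraries and the other WT libraries below them. ITGB1 was higher in each SLUG KO library, at 2262, 2028 and 2485 CPM against 1573, 1062 and 1735 CPM, with a log2 fold change of 0.61 ± 0.23 (adjusted p = 0.211) and without WT replicate 2 of 0.44 ± 0.11 (adjusted p = 0.00553). ITGA5 was lower in each SLUG KO library, at 91.7, 86.5 and 91 CPM against 113, 184 and 120 CPM, with -0.66 ± 0.22 (adjusted p = 0.177) and without that library -0.39 ± 0.08 (adjusted p = 0.00190). ITGB5 (0.48, adjusted p = 0.000937), ITGAV (0.29, adjusted p = 0.0274) and ITGA6 (0.26, adjusted p = 0.0425) were also called as higher without WT replicate 2. ITGA2 (-0.12, adjusted p = 0.332), ITGB6 (adjusted p = 0.0640) and ITGB8 (-0.15, adjusted p = 0.399) were not called without it either. FN1, the ligand of the ITGA5 receptor, was lower in SLUG KO with all libraries, at 83.3, 82.7 and 96.9 CPM against 717, 975 and 627 CPM (-3.17 ± 0.23, adjusted p = 0.00182, without WT replicate 2 -2.95, adjusted p = 4.19e-11). TNS4, a tensin, fell as well (-3.78 ± 0.77, adjusted p = 0.0478), and without WT replicate 2 by 2.46 on the log2 scale (-2.46 ± 0.26, adjusted p = 3.11e-06). Its WT libraries held 6.34, 28.6 and 4.18 CPM. What set WT replicate 2 apart was not tested.

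**Figure D4:**
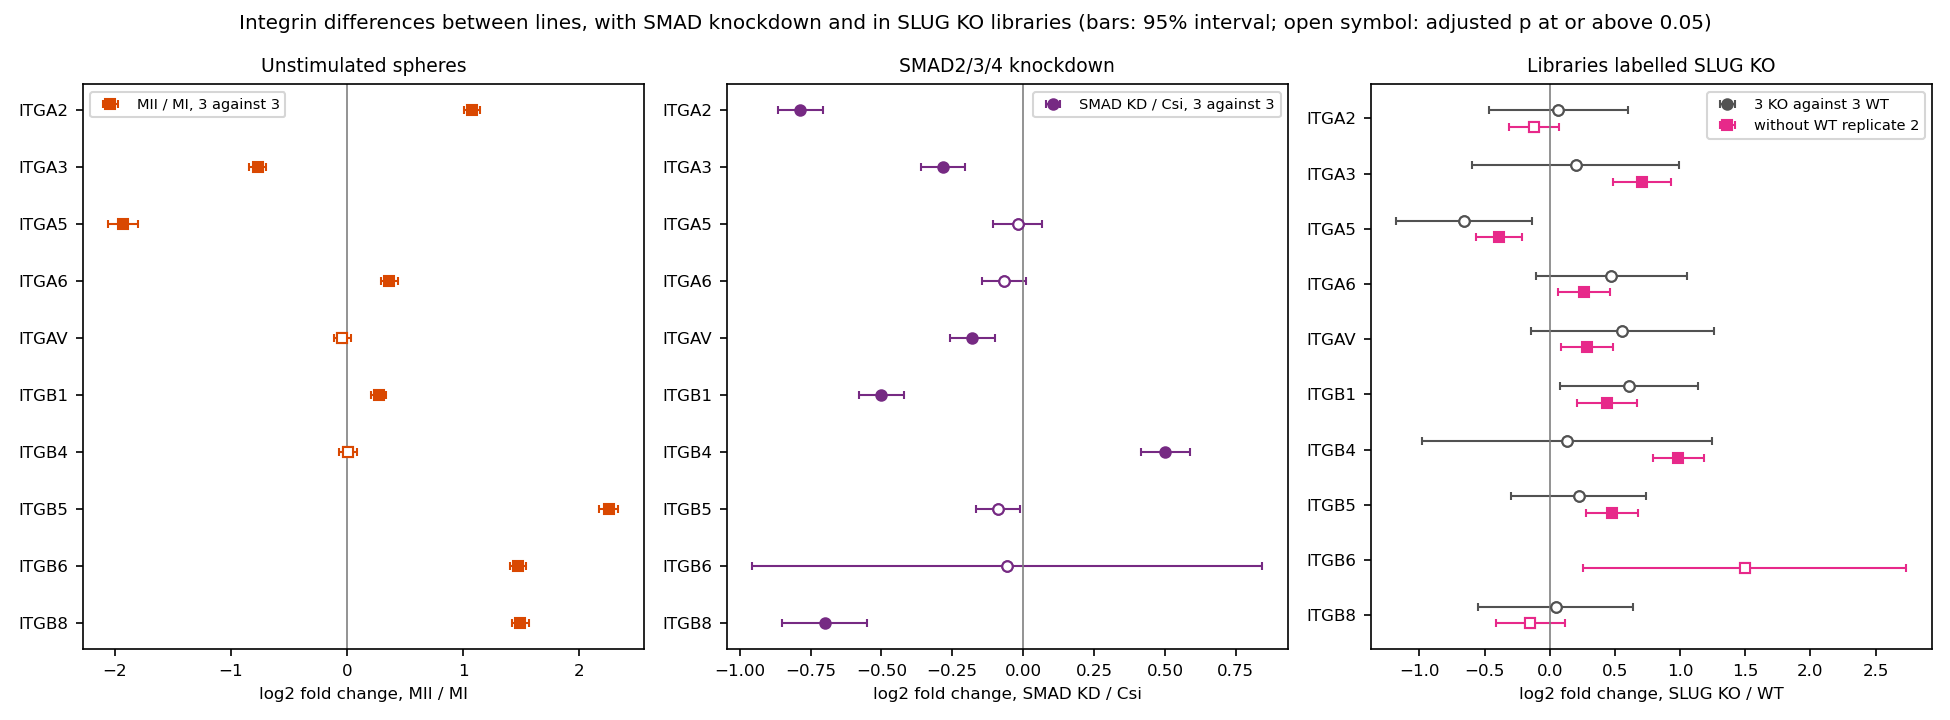
Log2 fold change of each integrin between unstimulated MII- and MI-spheres (left), SMAD KD and Csi (middle) and SLUG KO and WT libraries (right, circles with all libraries and squares without WT replicate 2), with 95% intervals and open symbols for an adjusted p at or above 0.05. Each panel has its own scale. ITGB5 and ITGA5 lie at 2.25 and -1.93 on the left, ITGB4 is the filled symbol above 0 in the middle, and the intervals on the right narrow without WT replicate 2.

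The order of the 8 groups differed between members. ITGB6 was highest in MII-TGFβ (949 to 990 CPM), followed by MII-Ctrl (816 to 841 CPM) and MI-TGFβ (727 to 851 CPM), which overlapped, and by MI-Ctrl (293 to 308 CPM). The 4 MDA-MB-231 groups followed with overlap between neighbours. ITGB8 had the same sphere line on top, at 471 to 500 and 440 to 447 CPM, and ITGA2 was highest in MII-Ctrl (618 to 659 CPM) and lowest in SMAD KD (245 to 263 CPM). ITGAV was highest in MI-TGFβ (507 to 587 CPM) and MII-TGFβ (452 to 470 CPM), and its other groups from MI-Ctrl downwards (293 to 304 CPM) overlapped their neighbours. ITGA3, ITGA6 and ITGB1 had their highest mean in SLUG KO, at 1723 to 2030, 831 to 924 and 2028 to 2485 CPM. ITGA5 was highest in Csi (157 to 173 CPM) and SMAD KD (157 to 167 CPM), which overlapped. ITGB4 ran from a mean of 351 CPM in WT, where its libraries held 198, 661 and 195 CPM, to 581 CPM in SMAD KD. Differences between the siRNA groups and the others cross sequencing batches and were not tested.

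For each member, the protein-coding gene with the most similar pattern was sought among 12870 genes with a mean of at least 1 CPM, by Pearson's r of log2 CPM over the 24 libraries. These points share libraries and fall into 8 groups, so r is a description. ITGB6 was most like LIPK (r = 0.998), ITGB8 most like IL18R1 (0.994), ITGA3 most like ASXL1 (0.987), ITGA5 most like ADISSP (0.984) and ITGB1 most like MED30 (0.975). ITGA6 was followed by MSANTD4 (0.957), ITGB5 by TNIK (0.956), ITGAV by PLOD2 (0.954), ITGA2 by RTKN2 (0.902) and ITGB4 by PWWP2B (0.888), the lowest of these values. Over the 8 group means, ADISSP, MED30, RTKN2 and IL18R1 again came first for ITGA5, ITGB1, ITGA2 and ITGB8 (0.991, 0.985, 0.912 and 0.996), and the other 6 members had another gene. No member had another integrin as its most similar gene.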

How the data were processed

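RNA-seq counts of 24 libraries were analysed, 3 in each of 8 groups taken from the sample labels. The 16 ATAC-seq samples of the 40 in the series were not analysed here. Per its methods and labels, the study used Trimmomatic for trimming and STAR for alignment to GRCh38. The authors deposited raw counts per gene from featureCounts 2.0.0 over GENCODE 38 exons, with a minimum mapping quality of 30, both ends mapped, strand ignored and ambiguous fragments dropped, so antisense partners cannot be separated. The 10 members were found by symbol among 60708 genes, of which 60463 had a symbol.

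Members and gene lists were chosen with earlier results of these data known. Every comparison had a separate fit of its 6 libraries (the interaction of 12) in R 4.3.3 with edgeR 4.0.16: filterByExpr, TMM and the quasi-likelihood test. P-values were adjusted by Benjamini-Hochberg over the whole table of tested genes. Called means an adjusted p under 0.05, and intervals are at 95%. CPM are TMM-scaled over all 24 libraries, and therefore differ slightly from the fitted fold changes. Comparisons that share MI-Ctrl, MII-Ctrl or WT libraries are not independent. An exact permutation test of 3 against 3 libraries was not used. Replicates are labelled biological, but separate cultures are not described, so p-values measure only the spread between these libraries.

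The genes named are the members, HRAS, SNAI2 and the SMADs, the markers, the called list genes with the largest rise or fall, LAMA3 and LAMB3, FN1 and TGFB1, and the most similar gene of each member. In the closing section, integrin genes outside the set with low levels were named after their values were seen. Of the list genes that the rule selects, some are left out of the text, and 1 gene is not reported here. Same-numbered replicates were not paired: correlations of their deviations from the group means ran from -0.185 to 0.0655, and no comparison had every pair above 0.1. Alternatives were DESeq2 1.42.0 with its own filtering, its size factors in edgeR, library totals, TMM over all libraries, no filter on low counts, at least 10 counts in every library, a gene length offset, a replicate block, 18 libraries in 1 fit, a flow cell term and leaving out each replicate. The tests were checked on simulated counts with known changes. Most of these changes were missed in the comparisons that rest on the WT group, and most were called in the others. Tables were handled with pandas 2.3.3 and plotted with matplotlib 3.10.9.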

Additional observations from a re-analysis of the deposited data

Results flagged for a closer look

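The response to TGFβ1 differed between MII- and MI-spheres for 5 of the 10 integrins by the interaction term of edgeR's quasi-likelihood test. Over all 18591 tested genes, 22.4% were called. The difference of log2 fold changes, MII-spheres minus MI-spheres, was -1.10 for ITGB6 (adjusted p = 1.21e-16), -0.85 for ITGB5 (adjusted p = 2.34e-13), -0.66 for ITGA2 (adjusted p = 7.91e-11), -0.25 for ITGA6 (adjusted p = 0.00631) and 0.39 for ITGB8 (adjusted p = 3.03e-05). ITGA2 was higher with TGFβ1 in MI-spheres and lower in MII-spheres. ITGB8 fell in MI-spheres and was called higher in MII-spheres, where its direction turned with library totals (-0.0237, adjusted p = 0.552). It also lost the call there with at least 10 counts in every library (0.0676, adjusted p = 0.0816). ITGB6, ITGB5 and ITGA6 rose in both lines and less in MII-spheres. In the fit of 18 libraries the interaction was not called for ITGB8 and ITGA6 (adjusted p = 0.557 and 0.605).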

How the results depend on the processing

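Of 701 alternative values of the 42 called member results, 683 kept direction and call, 17 lost the call and 1 turned. In 1 fit of 18 libraries the number of called members was 5 in MI-spheres, 4 in MII-spheres, 5 for SLUG KO and 3 for the interaction. For SLUG KO, 4 of these were ITGA5, ITGB1, ITGA6 and ITGAV. The other was ITGB6, at 3 to 18 counts per library in WT and SLUG KO. It was too low for the main fit and passed the filter here through the sphere libraries, so this call is not read as a result. Leaving out 1 library at a time gave 8 to 9 called members in MI-spheres, 8 to 9 in MII-spheres, 8 for MII against MI, 6 to 9 for WT against MI, 0 to 7 for SLUG KO, 6 for SMAD KD and 5 to 6 for the interaction. ITGB1 had the highest level of the members in 0 groups per kb and in 2 groups by CPM. With a replicate block, alone or with the gene length offset, 9, 8, 8, 7, 0, 6 and 5 members were called in these 7 comparisons, and the block changed no other member's call than that of ITGB4 in MI-spheres (0.12, adjusted p = 0.0278). The cause of these changes was not tested.

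With library totals the median of all genes moved from -0.0165 to -0.15 in MI-spheres, from -0.0179 to -0.15 in MII-spheres and from 0.059 to 0.18 for WT against MI. With DESeq2 the median was taken over all genes with any count, a wider set, so it cannot be set beside the others as a shift. It was -0.24 in MII-spheres, -0.20 for SLUG KO and -0.16 for the interaction. With DESeq2's size factors in edgeR, over the filtered genes, the medians were -0.0191, -0.0445 and -0.0120. The direction turned with library totals for ITGB8 (-0.0237) and ITGA3 (-0.11) in MII-spheres, ITGB4 in MI-spheres (-0.010), ITGAV between MII and MI (0.0498) and ITGB8 for SLUG KO (-0.0063). Between MII and MI, ITGB4 turned with DESeq2 (-0.0152), TMM over all libraries (-0.000815) and no filter (-0.0287). ITGA3 in MII-spheres turned with at least 10 counts (-0.0156). ITGB1 turned for the interaction with TMM over all libraries (-0.0163) and in the fit of 18 libraries (-0.0243). Of these, ITGB8 in MII-spheres was the called one.

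Leaving out 1 library turned 9 uncalled values. Their ranges were -0.0058 to 0.064 for ITGA3 in MII-spheres (turned without MII-TGFβ replicate 3), -0.054 to 0.044 for ITGB4 between MII and MI (MI-Ctrl replicate 3 or MII-Ctrl replicate 2), -0.415 to 0.052 for ITGAV between WT and MI (WT replicate 2) and -0.066 to 0.075 for ITGB1 in the interaction (MI-TGFβ replicate 1 or 2, MII-TGFβ replicate 2). For SLUG KO they were -0.12 to 0.22 for ITGA2 and -0.15 to 0.29 for ITGB8 (WT replicate 2) and -0.14 to 0.99 for ITGB4 (WT replicate 1 or 3). For SMAD KD they were -0.055 to 0.018 for ITGA5 and -0.30 to 0.14 for ITGB6 (Csi or SMAD KD replicate 3).

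Counts over all genes moved by more than 1.5 times in the fit of 18 libraries (MI 4895 against 9446, MII 3422 against 9438, MII against MI 6754 against 11474, interaction 999 against 4156, SLUG KO 4174 against 581), for WT against MI with at least 10 counts (6527 against 10107), and for SLUG KO with DESeq2 (1204), no filter (973), at least 10 counts (260), the block (255), the block with the length offset (186) and 1 library left out (133 to 5592). Depth limits ITGB6 in MDA-MB-231, with 3 to 18 counts per library.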

Other observations

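Among the 16 integrin genes outside the set, ITGA2B, ITGA4, ITGA8, ITGAD, ITGAL and ITGAX had a mean under 1 CPM in every group. ITGA10, an α chain of collagen receptors, was at 0.796 CPM in MI-Ctrl, 9.58 CPM in WT and 66 CPM in Csi, and the test of WT against MI-Ctrl gave a log2 fold change of 3.59 ± 0.28 (edgeR, adjusted p = 4.93e-05, without WT replicate 2 3.51, adjusted p = 9.83e-10). ITGB7, a leukocyte β chain, was at 8.62 CPM in MI-Ctrl and 0.106 CPM in WT. With SMAD KD, 3 of 8 tested genes of this list were higher and 2 lower, against 16.3% and 19.7% of all genes. ITGA1, another collagen receptor chain, fell most (-0.53 ± 0.05, edgeR, adjusted p = 5.05e-10), from a mean of 65.7 CPM to 45.6 CPM. In MI-spheres 2 of 9 tested rose with TGFβ1 and 3 fell, against 28.7% and 27.4% of all genes. Among those that fell was ITGB2, another leukocyte β chain (-2.16 ± 0.28, edgeR, adjusted p = 1.26e-06), at means of 2.66 and 0.632 CPM. In MII-spheres 1 of 7 rose and 1 fell, against 29.9% and 27.6% of all genes. None of the 9 genes tested for SLUG KO was called by edgeR, with 3 at an unadjusted p under 0.05. Over all genes these shares were 3.33% and 19.1%. Without WT replicate 2, 4 were higher and 3 lower, against 16.8% and 14.4% of all genes.

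In MDA-MB-231 WT against MI-Ctrl, 12 of 20 tested ligands were higher and 3 lower, and 13 of 24 activators and adaptors were higher and 3 lower, against 28.1% of all genes higher and 25.9% lower. Without WT replicate 2 these were 12 and 7 ligands and 17 and 6 activators and adaptors, against 36.6% and 38.3% of all genes. FN1 was higher (3.80 ± 0.23, adjusted p = 1.75e-05, without that library 3.57, adjusted p = 1.58e-14). The hemidesmosomal genes diverged, with the plectin gene PLEC higher (2.95 ± 0.73, adjusted p = 0.0115) and COL17A1 lower (-3.05 ± 0.21, adjusted p = 2.86e-05). PLEC stood at 1293, 7925 and 1405 CPM in the WT libraries, and without replicate 2 its log2 fold change was 1.53 (adjusted p = 2.42e-10) and that of COL17A1 -3.27 (adjusted p = 2.62e-14).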
